A study of Mus musculus with 18 samples.

Results

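Messenger RNA of 10 genes for glutathione S-transferases, carbonyl reductases and related detoxifying enzymes was followed in 2 lines of mouse embryonic fibroblasts. The genes were chosen by name: the transferases Gstm1, Gstm2, Gstt1, Gstp1, Gsta4 and Gsto1, the reductases Cbr1, Cbr3 and Akr1b8, and the epoxide hydrolase Ephx1. All 10 appeared in the authors' tables, which together list 10133 genes. Of the 10, 9 were listed at every time, as were 3826 genes in all, and Gstp1 was missing from the table for 0 min.

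Both lines were immortalized fibroblasts grown from mouse embryos. One carried wild-type eIF2α (WT) and the other the S51A form of this translation initiation factor, in which the serine phosphorylated by stress kinases is an alanine. Cells were untreated (0 min) or received 500 µM hydrogen peroxide (H2O2), an oxidant, for 15 or 120 min. By the labels there are 18 samples, 3 for each of 6 groups, although the design text mentions duplicates. Each genotype was 1 line, so genotype and line cannot be told apart.

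The authors' tables give 1 value per group, in FPKM (fragments scaled to transcript length and library size), and a q-value for the difference between the lines at each time. Values of single samples were not used here, so no SD, sample range or sequencing depth stands beside any level, and whether the samples of the groups overlapped was not tested. Nothing in the labels says that samples came from separate cultures, so the q-values may measure technical spread alone. The tables hold only genes that the authors called, at a q of at most 0.05, which makes 7555 genes at 0 min, 8308 at 15 min and 6119 at 120 min. A gene absent from a table may be unchanged, low or untested.

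Glutathione S-transferases join the tripeptide glutathione to reactive electrophiles, such as lipid aldehydes and epoxides made under oxidative stress, and the conjugates are then exported and trimmed. Carbonyl and aldo-keto reductases use NADPH to turn quinones, ketones and aldehydes into alcohols, and epoxide hydrolases open epoxides with water. Many of these genes are known targets of the transcription factor NRF2, and several sit in tandem clusters of related genes.

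The fibroblast label was set against marker genes. Of 12 fibroblast markers, 10 were listed at 0 min, 7 higher and 3 lower in S51A, with a summed level of 2819 FPKM in WT against 4503 in S51A. Col1a1 and Col1a2, the chains of type I collagen, were higher in S51A, and Vim, Dcn and Thy1 were lower. None of 8 epithelial or 6 endothelial markers was listed at any time. A marker with like levels in both lines would not be listed, so this absence does not tell whether these markers were expressed. Of 7 macrophage markers at most 2 were listed at a time, with sums between 0.165 and 4.09 FPKM. No listed marker was at 0. In bulk RNA, fewer cells of a type and less RNA per cell cannot be told apart, and the part of the fibroblast markers' difference in the results below was not tested. Eif2s1, the gene for eIF2α, was listed at 91.8 FPKM in WT against 45.3 in S51A at 0 min; the level of this transcript does not check a change of 1 codon.

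In untreated cells, 6 of the 9 listed enzymes were higher in S51A and 3 were lower. Gstt1 and Cbr3 stood out, at 43.4-fold and 18.4-fold the WT level. The mu-class pair Gstm1 and Gstm2, Ephx1 and Cbr1 were between 2.87-fold and 4.47-fold higher. Gsta4, Akr1b8 and Gsto1, the 3 most abundant of the 9 in WT, were the ones that were lower in S51A. The share of all listed genes that were higher was 49.6% and lower 50.4%. With a minimum fold of 2 the enzymes counted 6 higher and 2 lower, beside 22.1% and 15% of listed genes. Their median log2 ratio (S51A over WT) was 1.83, against -0.27 over all listed genes. With 9 genes, chosen with earlier results known, these counts are a description.

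The same division held after H2O2. At 15 min 7 of 10 were higher and 3 lower, beside 49.9% and 50.1% of listed genes, and with a minimum fold of 2 the counts were 6 and 2, beside 20.2% and 12.3%. At 120 min 7 were again higher and 3 lower, beside 50.9% and 49.1%, and with a minimum fold of 2 the counts were 6 and 1, beside 26.5% and 20.9%. The median log2 ratio of the 10 was 1.86 at 15 min and 1.69 at 120 min, against -0.20 and 0.41 over all listed genes. No enzyme listed at all times changed sides between the times.

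**Figure D1:**
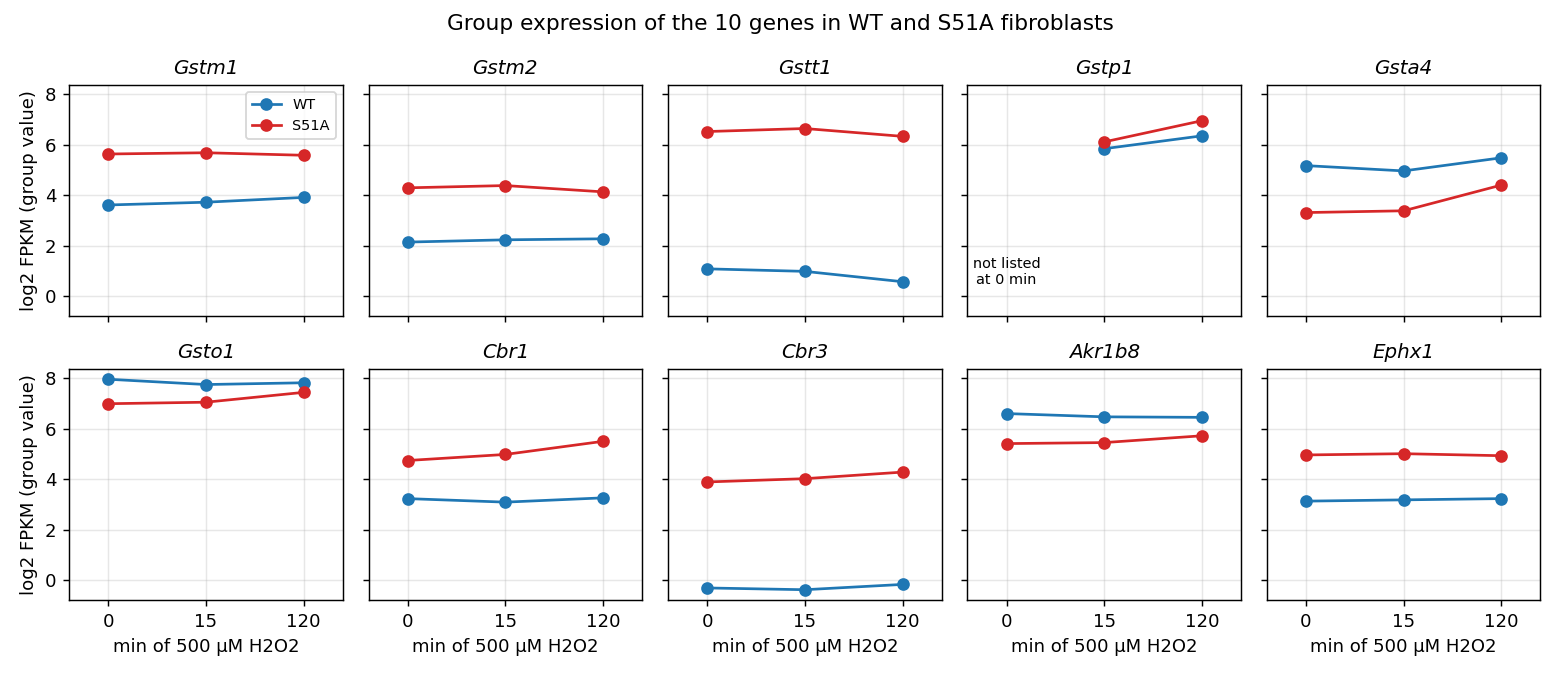
Group level of each of the 10 genes on a log2 FPKM axis (vertical) at 0, 15 and 120 min of 500 µM H2O2 (horizontal, evenly spaced and not to scale), with WT in blue and S51A in red. Each point is the authors' single value for a group, without error. S51A lies above WT for Gstm1, Gstm2, Gstt1, Gstp1, Cbr1, Cbr3 and Ephx1 and below it for Gsta4, Gsto1 and Akr1b8 wherever a gene is listed.

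Gstt1, the theta-class transferase, which acts on small halogenated compounds and hydroperoxides, differed most between the lines. Its level in WT was 2.13 FPKM at 0 min, 1.99 FPKM at 15 min and 1.49 FPKM at 120 min. Its level in S51A was 92.4, 100.4 and 81.0 FPKM at the same times. All 3 S51A values were thus far above all 3 WT values, at folds of 43.4, 50.6 and 54.2. Among the levels of all listed genes at 0 min, Gstt1 lay at percentile 17.3 in WT and 91.5 in S51A. The authors' deposited table gave a log2 ratio of 5.44 at 0 min with a q of 0.000118, which is the smallest q in that table and is shared by 4905 genes.

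The mu-class genes Gstm1 and Gstm2 encode cytosolic transferases with broad activity toward electrophiles. Gstm1 was at 12.3, 13.3 and 15.1 FPKM in WT against 49.9, 51.6 and 48.2 in S51A at 0, 15 and 120 min. Gstm2 was at 4.44, 4.72 and 4.86 FPKM in WT against 19.7, 21.0 and 17.6 in S51A. Both were lower in every WT group than in any S51A group. Their folds ran side by side, 4.08, 3.86 and 3.18 for Gstm1 and 4.47, 4.44 and 3.63 for Gstm2, and were smallest for both at 120 min.

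Gstp1, the pi-class transferase, differed least among the genes with higher values in S51A. It was at 57.7 FPKM in WT against 69.6 in S51A at 15 min, a fold of 1.21. At 120 min it was at 82.1 FPKM in WT against 124.5 in S51A, a fold of 1.52. In the authors' deposited table its q was 0.0121 at 15 min and 0.003 at 120 min. Of the 75-base stretches in its transcripts (the read length), 29.2% also occur in another gene, all 536 of them in the near-identical Gstp2, so its value depends on how the authors' counting divided shared reads.

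Gsta4 and Gsto1 went the other way. Gsta4, an alpha-class transferase known for conjugating 4-hydroxynonenal from oxidized lipids, was at 36.3, 31.3 and 44.9 FPKM in WT against 9.99, 10.5 and 21.3 in S51A. Every WT value was above every S51A value, by a fold of 3.63 at 0 min, 2.99 at 15 min and 2.13 at 120 min. Gsto1, the omega-class enzyme, which reduces dehydroascorbate and mixed disulfides, had the highest level of the listed enzymes in all 6 groups, with Gstp1 not listed at 0 min. It stood at 249, 215 and 226 FPKM in WT against 127, 133 and 174 in S51A, and WT was higher by 1.97-fold at 0 min and 1.30-fold at 120 min. Relative to the median ratio of genes listed at all times, its log2 ratio was -0.69 at 0 min and -0.76 at 120 min. The q of Gsto1 at 120 min in the authors' deposited table was 0.0472, next to the authors' limit.

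The reductases were divided as well. Cbr1, which reduces quinones and prostaglandins, was at 9.38, 8.51 and 9.58 FPKM in WT against 26.7, 31.6 and 45.3 in S51A. Its S51A values climbed from time to time while its WT values lay between 8.51 and 9.58 FPKM, and its fold was 2.87, 3.71 and 4.76. Cbr3, its close relative, was at 0.807, 0.768 and 0.889 FPKM in WT against 14.8, 16.2 and 19.4 in S51A. Cbr3 was the lowest of the enzymes in all WT groups, and a fold against a value under 1 FPKM, at unknown depth, is uncertain in size. Akr1b8, an aldo-keto reductase of lipid aldehydes, was at 97.0, 88.6 and 87.4 FPKM in WT against 42.5, 43.7 and 52.7 in S51A, so that WT was higher by 2.27-fold, 2.03-fold and 1.66-fold.

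Ephx1, the microsomal epoxide hydrolase, was at 8.75, 9.06 and 9.38 FPKM in WT against 31.1, 32.2 and 30.5 in S51A. Its levels barely moved with time in either line, and its fold was 3.56, 3.56 and 3.25.

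**Figure D2:**
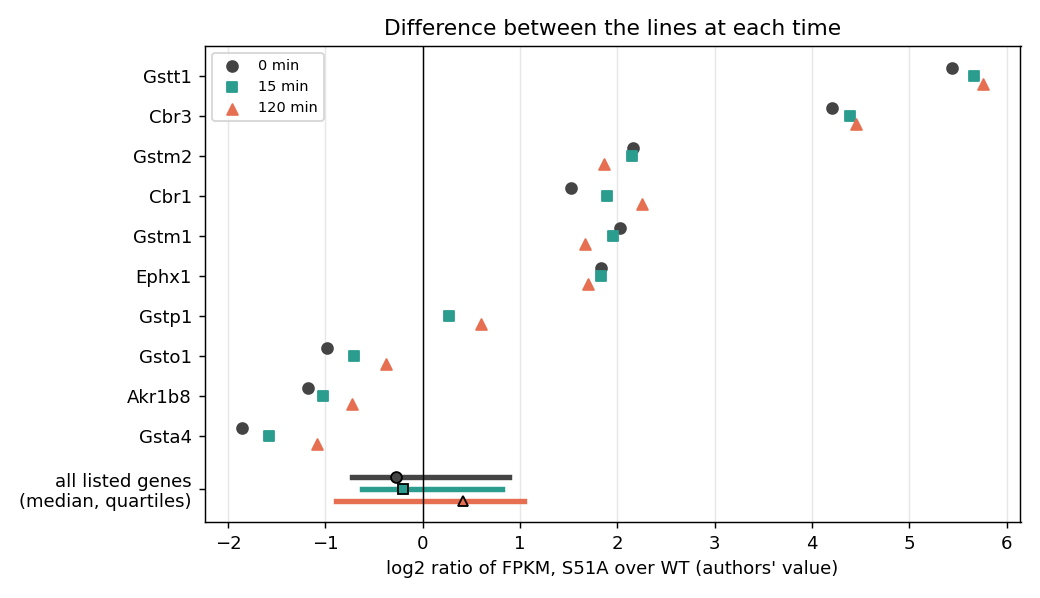
The authors' log2 ratio of S51A over WT (horizontal) for each gene at 0 min (circles), 15 min (squares) and 120 min (triangles), with the median and quartiles of all listed genes in the bottom rows. Gstt1 reaches 5.76 and Cbr3 4.45 at 120 min, while Gsta4, Akr1b8 and Gsto1 lie left of 0 at all 3 times.

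Because FPKM is per transcript length, the levels can also be ordered among the genes. In untreated WT cells the order was Gsto1, Akr1b8, Gsta4, Gstm1, Cbr1, Ephx1, Gstm2, Gstt1 and Cbr3, and the level of Gsto1 was 2.57-fold that of Akr1b8. Cbr1 and Ephx1 were next to each other with a ratio of 1.07, and with no values per sample that step was not tested. In untreated S51A cells the order was Gsto1, Gstt1, Gstm1, Akr1b8, Ephx1, Cbr1, Gstm2, Cbr3 and Gsta4. Gstt1 was thus next to last in WT and next to first in S51A, and Gsta4 went from the third place to the last. The summed level of the listed enzymes was alike in the untreated lines, at 420 FPKM in WT against 414 in S51A. With Gstp1 included, the sum was 482 FPKM in WT against 614 in S51A at 120 min. Gstp1 made up 82.1 and 124.5 FPKM of these and was not listed at 0 min, so the sums at 0 and 120 min cover different genes.

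The ratio as deposited differed between the times. From 0 to 120 min the log2 ratio of S51A over WT moved up by 0.77 for Gsta4, 0.73 for Cbr1, 0.60 for Gsto1, 0.45 for Akr1b8, 0.32 for Gstt1 and 0.25 for Cbr3. It moved down for Gstm1, Gstm2 and Ephx1, with shifts of -0.36, -0.30 and -0.13. The median ratio of the 3826 genes listed at all times went from -0.29 to 0.38, but the shifts of single genes did not centre on such a move. Relative to that median, the log2 ratio was -0.69 and then -0.76 for Gsto1, -0.89 and then -1.11 for Akr1b8, 5.73 and then 5.38 for Gstt1, and 4.49 and then 4.07 for Cbr3, so these 4 moved down. On that scale Gsta4, at -1.57 and -1.47, and Cbr1, at 1.81 and 1.87, moved up by less, and Gstm1, Gstm2 and Ephx1 moved down on both scales. Over 4272 genes listed at both times with neither line at 0, the median shift was -0.05, with quartiles at -0.56 and 0.46. Set against that median shift, which is over genes of all lengths, none of the deposited directions turns.

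Transcript length moved with this shift. Among genes whose longest coding transcript is under 1500 nt, 521 genes had a median shift of 1.10, with quartiles at 0.62 and 1.45. Among 3581 longer genes the median was -0.16. Of the 10 enzymes 9 are under that length, and Ephx1 has 1741 nt. Among the short genes the shift of Gsta4 lay at percentile 31.9, that of Cbr1 at 29.4 and that of Gsto1 at 24.0. Akr1b8 lay at percentile 19.2, Gstt1 at 13.4, Cbr3 at 11.3, Gstm2 at 2.88 and Gstm1 at 2.30. The part of transcript length in the shifts of single enzymes was not tested.

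Within each line, the change from 0 min was taken as log2(FPKM + 1) less the median change of genes listed at both times. Whether the authors normalized the tables together is not stated, so no test is given for these values. After 120 min in S51A the change was 1.20 for Gsta4, 0.92 for Cbr1, 0.62 for Gsto1, 0.55 for Cbr3 and 0.48 for Akr1b8, the last being 0.30 without centring. These 5 were above the upper quartile of 0.45 over 4328 genes. That quartile is over genes of all lengths, and these 5 are all under 1500 nt. The part of transcript length in their changes was not tested. The other S51A values lay between -0.01 for Gstt1 and 0.15 for Ephx1, and each of these 4 (Gstt1, Gstm2, Gstm1 and Ephx1) changed sign with another pseudocount or centring. In WT 5 genes were likewise above the upper quartile of 0.13: Gsta4 at 0.40, Gstm1 at 0.38, Gstm2 at 0.21, Ephx1 at 0.19 and Cbr3 at 0.16. Without centring the last 3 were at 0.11, 0.090 and 0.064. Gstt1 in WT was at -0.23, below the lower quartile of -0.17, and at -0.37 with a pseudocount of 0.1. Gsta4 was therefore the gene with the highest value in both lines. At 15 min the values were smaller: Cbr1 in S51A, at 0.21, lay at percentile 95.7 of 6369 genes, and Gsto1 and Gsta4 in WT, at -0.22 and -0.21, at percentiles 11.4 and 12.2.

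**Figure D3:**
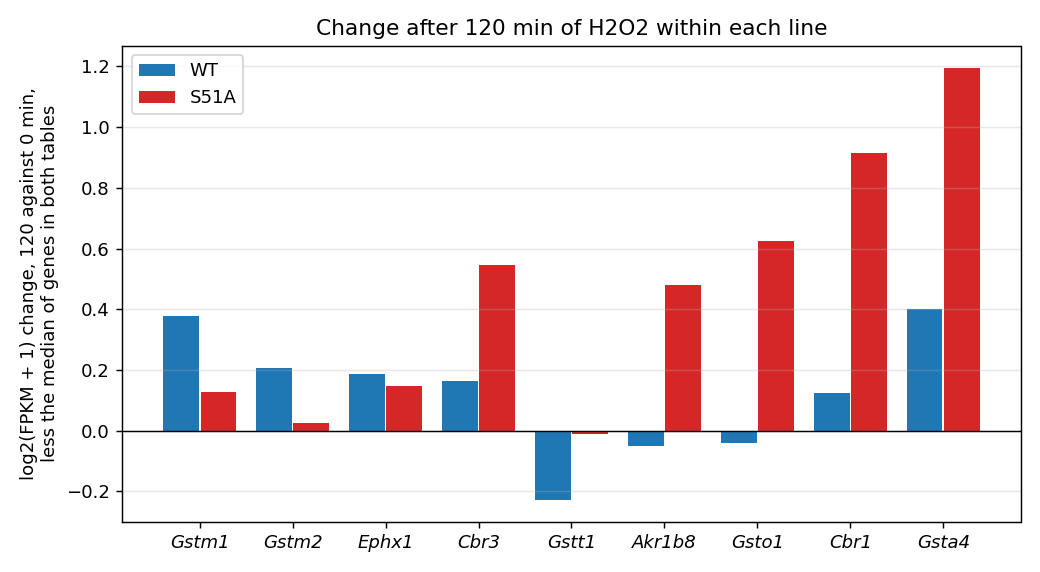
Change after 120 min of H2O2 within WT (blue) and S51A (red), as log2(FPKM + 1) at 120 min less that at 0 min and less the median of genes in both tables (vertical), for the 9 genes listed at both times. The red bars of Gsta4 (1.20) and Cbr1 (0.92) are the tallest, and Gstt1 is the gene below 0 in both lines; its S51A value of -0.01 becomes 0.024 with a pseudocount of 0.1.

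Most of the enzymes sit in clusters of related genes. By the authors' coordinates in mm10, with 1 added to each start, Gstm2 spans chr3:107981702-107986436 and Gstm1 chr3:108012250-108017973. Gstt1 spans chr10:75783813-75798584. Cbr1 spans chr16:93607837-93610349 and Cbr3 chr16:93683219-93690991. Gsta4 spans chr9:78191966-78209349, Akr1b8 chr6:34354164-34368454 and Ephx1 chr1:180989556-181017495. Gstp1 spans chr19:4035411-4037912 and Gsto1 chr19:47854989-47864788. In the mu cluster Gstm5 and Gstm6 were also higher in S51A at 0 min, with log2 ratios of 2 and 2.4 in the authors' deposited table, near the 2.03 of Gstm1 and 2.16 of Gstm2. In the theta cluster Gstt3 was higher as well, with a log2 ratio of 2.72 in the authors' deposited table. For reads of 75 bases, 11.7% of the stretches in Gstm1 transcripts and 1.85% of those in Gstm2 transcripts occur in other genes, and none in Gstt1, Cbr1, Cbr3, Gsta4 or Gsto1.

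Genes within 500 kb that are not transferases, reductases or epoxide hydrolases of the lists were then counted. This look was chosen after the values were seen and carries no test. Genes of the other related lists stayed in, such as Acy3 and Aldh3b1 near Gstp1. Around Gstt1, 11 of 26 coding genes were listed at 0 min, 10 higher and 1 lower in S51A. Among them Ddt, a tautomerase related to Mif, was at 37.8 FPKM in WT against 139 in S51A, and Mif itself was the lower gene, at 885 and 622 FPKM, although at 120 min it was higher, at 809 and 1468 FPKM. Lrrc75b had the largest ratio there, at 0.10 and 13.6 FPKM. The counts around Gstt1 were 7 higher and 0 lower at 15 min, and 7 and 2 at 120 min. Around Gstm1 and Gstm2, 7 of 9 listed neighbours were higher, and around Cbr1 and Cbr3 4 of 5. Around Gsta4, 7 of 8 listed neighbours were lower in S51A. These included Gclc, the catalytic subunit of the enzyme that starts glutathione synthesis, at 41.1 FPKM in WT against 17.1 in S51A. At 15 min 8 of 10 and at 120 min 5 of 6 listed neighbours of Gsta4 were lower. Around Gstp1 15 of 20 were higher at 0 min and 18 of 18 at 120 min. Around Ephx1, by contrast, 3 neighbours were higher and 5 lower, while Ephx1 itself was higher. Around Gsto1 3 of 4, and around Akr1b8 4 of 7, were higher at 0 min while the enzyme was lower. At 120 min 2 neighbours of Gsto1 were higher and 2 lower, and both listed neighbours of Akr1b8 were lower. For comparison, 49.6% of all listed genes were higher at 0 min and 50.9% at 120 min.

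**Figure D4:**
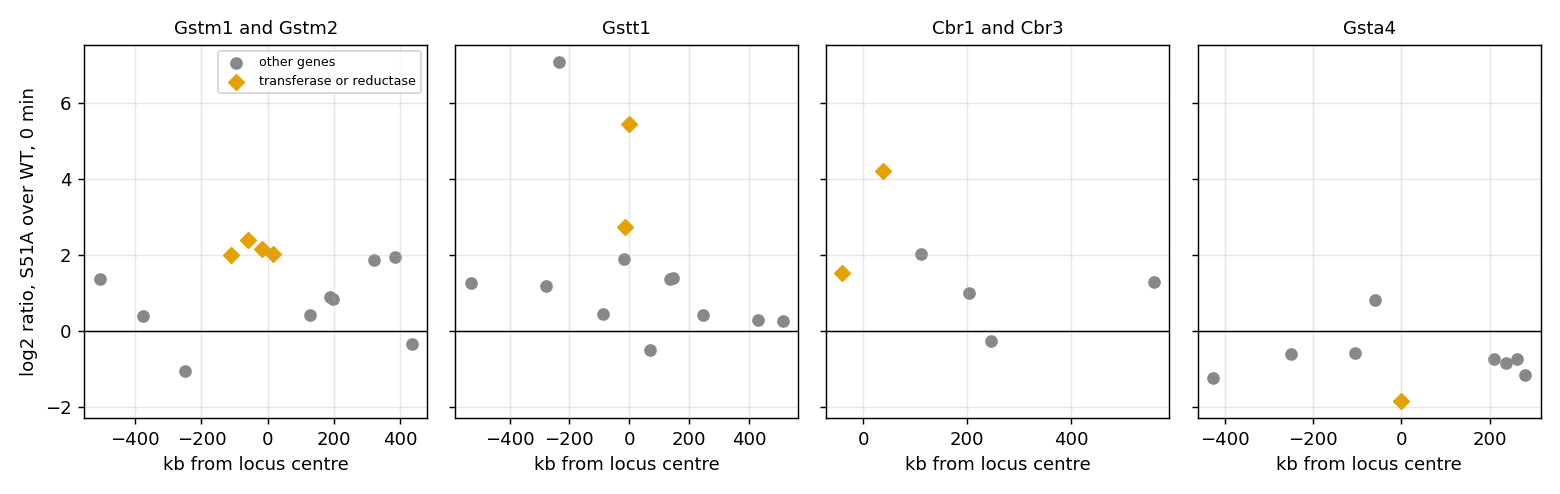
The authors' log2 ratio of S51A over WT at 0 min (vertical) of listed genes against their distance in kb from the centre of the locus (horizontal), for 4 loci. The loci of Gstp1, Ephx1, Gsto1 and Akr1b8 are not shown. Around Ephx1, Gsto1 and Akr1b8 most listed neighbours lay on the other side of 0 from the enzyme. Sim2, near Cbr1 and Cbr3 and listed at 0 in WT, is left out. Diamonds are transferases or reductases and circles are other genes; 10 of the 11 circles around Gstt1 lie above 0, and 7 of the 8 around Gsta4 lie below it.

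The sequence just before the start site was read for the 3 genes with the largest mean ratio over the times (Gstt1, Cbr3 and Gstm2) and for Gstm1, the tandem neighbour of Gstm2. RefSeq windows on GRCm38.p6 reach from 250 bases before to 50 after a start and were matched for 9 of the 10 genes; Gsta4 was not matched. The 100 bases before the start are shown 5′ to 3′ on the gene's strand, with each CG in capitals. They lie at chr3:107986421-107986520 (minus strand) for Gstm2, chr3:108017974-108018073 (minus) for Gstm1, chr10:75797732-75797831 (minus) for Gstt1 and chr16:93683119-93683218 (plus) for Cbr3. The starts are those of RefSeq: the authors' span of Gstm2 reaches into the last bases shown, and the Gstt1 start lies inside the gene's span in the authors' tables.
Gstt1: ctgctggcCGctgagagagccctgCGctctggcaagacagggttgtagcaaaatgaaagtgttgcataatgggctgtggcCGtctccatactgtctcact
Cbr3: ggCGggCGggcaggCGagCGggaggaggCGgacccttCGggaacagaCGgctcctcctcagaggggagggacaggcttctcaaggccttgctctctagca
Gstm2: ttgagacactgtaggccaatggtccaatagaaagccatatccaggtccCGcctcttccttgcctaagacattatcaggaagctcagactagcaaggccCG
Gstm1: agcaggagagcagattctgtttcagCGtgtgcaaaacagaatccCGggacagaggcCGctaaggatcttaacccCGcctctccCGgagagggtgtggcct

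The starts differ in CG content. Over the whole window of 300 bases, Gstm2 holds 3 CG and Gstm1 14 (8 for its second window). Their log2 ratios at 0 min were 2.16 and 2.03. Gstt1 holds 8 and Cbr3 19. Over all 32851 windows the median was 7, with quartiles at 3 and 20. Among the genes lower in S51A, Gsto1 holds 16 and Akr1b8 10, and the matched genes that were higher hold 3 to 20. The part of CG content in the difference between the lines was not tested.

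NRF2 with its small Maf partners binds the antioxidant response element. One form of its core, TGACNNNGC, was searched on both strands. None of the 9 matched genes holds this form in the window, beside 12.4% of all windows. The looser TGANNNNGC, which includes this form, was found in 3 of the 9 genes (Gstp1, Gstt1 and Akr1b8), beside 41.3% of all windows. Gstp1 has 3 matches, the first from 74 to 66 bases before the start, and Gstt1 has 1, from 89 to 81 bases before the start. Both are shown with 16 bases on each side and the match in capitals, at chr19:4037962-4038002 (minus strand) and chr10:75797796-75797836 (minus). A match is a description of letters, and elements outside these windows were not searched.
Gstp1: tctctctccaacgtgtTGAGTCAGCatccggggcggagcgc
Gstt1: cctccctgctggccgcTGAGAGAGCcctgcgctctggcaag

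Other genes of the same pathways were counted from 8 lists with 139 genes in all, and the background for the counts is the 49.6% of listed genes that were higher at 0 min, 49.9% at 15 min and 50.9% at 120 min. Of 24 other glutathione transferases, 6 were listed at 0 min and 5 of them were higher in S51A. At 15 min 6 of 6 and at 120 min 7 of 7 were higher. Alox5ap, counted at 15 and 120 min, encodes a lipoxygenase-activating protein and not a transferase. Gstm5 was at 13.2 FPKM in WT against 52.7 in S51A at 0 min, and at 13.1 and 99.7 FPKM at 120 min. Gstt3 was at 2.04 and 13.4 FPKM at 0 min, and Gstz1, which isomerizes maleylacetoacetate in tyrosine breakdown, at 4.79 and 12 FPKM. The median log2 ratio of the listed genes was 1.66 at 0 min, beside -0.27 over all listed genes.

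Of 26 other carbonyl, quinone and enone reductases, 7 were higher and 4 lower in S51A at 0 min, 10 and 2 at 15 min, and 10 and 2 at 120 min. Cbr2, a carbonyl reductase best known from lung, was at 0.392 FPKM in WT against 45.6 in S51A at 0 min. Dhrs3, a retinaldehyde reductase, was at 0.297 and 16 FPKM. Akr1c18, which inactivates progesterone, was at 2.25 FPKM in WT and listed at 0 in S51A. Ptgr1, an enone reductase, was at 8.22 and 30.1 FPKM at 120 min. The list's median log2 ratio at 0 min was 0.47, or 0.60 without the gene listed at 0.

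Both listed epoxide hydrolases of 4 were higher in S51A at each time. Ephx2, the soluble enzyme, was at 0.308 FPKM in WT against 3.25 in S51A at 0 min. Lta4h, which makes leukotriene B4, was at 53.8 and 81.0 FPKM.

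The genes that act after conjugation were split. Of 21 genes of conjugate export and mercapturate formation, 6 were higher and 5 lower in S51A at 0 min, 7 and 5 at 15 min, and 4 and 4 at 120 min. Their median log2 ratio was 0.49, 0.57 and -0.02. Acy1, an aminoacylase, was at 25.1 FPKM in WT against 8.75 in S51A at 0 min. Abcc5, an export pump, was at 7.94 and 17.6 FPKM.

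Of 19 aldehyde dehydrogenases, which oxidize the aldehydes that the reductases reduce, 7 were higher and 2 lower at 0 min, 8 and 2 at 15 min, and 6 and 3 at 120 min. Aldh1a1, a retinaldehyde dehydrogenase, was at 9.45 FPKM in WT against 0.722 in S51A at 0 min, and Aldh3b1 at 0.140 and 5.54 FPKM. Their median log2 ratio at 0 min was 0.68. Of 18 other conjugating enzymes, 5 were higher and 2 lower at 0 min, 7 and 2 at 15 min, and 5 and 2 at 120 min, with a median of 0.84 at 0 min, or 0.81 without a gene listed at 0. Nnmt, which methylates nicotinamide, was at 31.6 and 6.23 FPKM at 0 min, and Nat2, an arylamine acetyltransferase, at 0.599 and 5.62 FPKM. Of 16 genes of phase I oxidation and its regulation, 6 were higher and 3 lower at 0 min. The counts were 5 and 4 at 15 min, and 2 and 1 at 120 min. The median at 0 min was 1.37, which is the ratio of Arnt, a transcription factor and not an oxidizing enzyme. Cyp1b1 was at 8.63 FPKM in WT against 54.9 in S51A at 0 min.

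Before 120 min, most listed genes of NRF2 and its regulators were lower in S51A. Of 11 genes, 2 were higher and 7 lower in S51A at 0 min and again at 15 min, and 3 and 3 at 120 min. The median log2 ratio was -0.55, -0.53 and 0.12. The list mixes NRF2, its partners and genes that act against it, so these counts give no direction of the pathway. Nfe2l2, the gene for NRF2, was at 51.3 FPKM in WT against 35.0 in S51A at 0 min. Keap1, an inhibitor of NRF2, was lower in S51A too, at 33.4 and 25.3 FPKM. Mafg, a small Maf protein that pairs with NRF2, was at 43.1 FPKM in WT against 20.1 in S51A at 0 min. Bach1, a repressor that competes for the same element, was at 4.99 and 11.5 FPKM. Maff, another small Maf, was at 23.8 and 8 FPKM at 0 min and at 31.8 and 61.0 FPKM at 120 min. The levels are of messenger RNA, and NRF2 is mainly controlled at the protein.

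**Figure D5:**
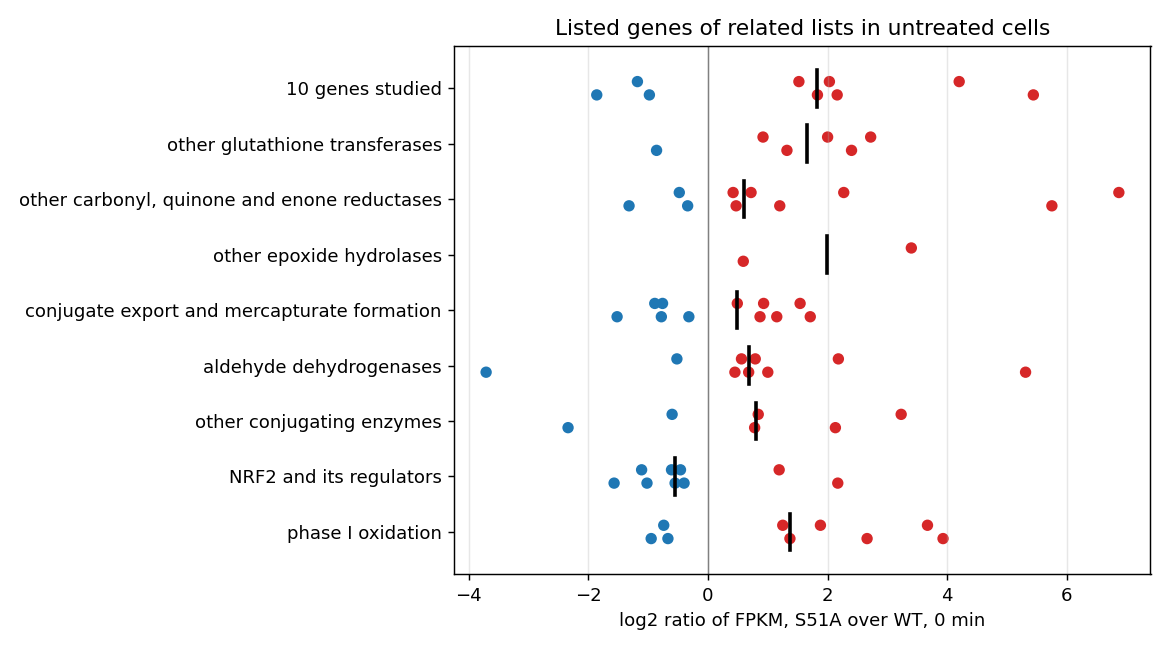
Log2 ratio of S51A over WT at 0 min (horizontal) of listed genes of the 10 enzymes and 8 related lists (rows), red where higher and blue where lower in S51A, with a black bar at the median; genes with a line at 0 are left out. Of 9 points in the top row, 6 are red, and of 9 points for NRF2 and its regulators, 7 are blue.

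The genes whose 6 group values ran most like those of the 3 enzymes with the largest mean ratio were sought among the 3826 genes listed at all times. Likeness was the Euclidean distance between log2(FPKM + 1) profiles, each centred on its mean, so a small distance is a like pattern. For Gstt1 the nearest were Isyna1, an enzyme of inositol synthesis, at 0.42, Cbr2 at 0.55 and Wisp2, a secreted matricellular protein, at 0.59. Isyna1 was at 0.283 FPKM in WT against 42.5 in S51A at 0 min. For Cbr3 the nearest were Npepl1 at 0.14, Cnn1, a calponin of contractile cells, at 0.20 and Cdkn1c, an inhibitor of cyclin-dependent kinases, at 0.26. For Gstm2 they were Mlycd at 0.15, Maged2 at 0.16 and Fuca2 at 0.16. With 6 group values that mostly record the step between the lines, a like profile is a description.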

How the data were processed

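Polyadenylated RNA from 18 samples was sequenced from one end in strand-specific libraries, per the labels' protocols. STAR, Cufflinks and Cuffdiff are named, without versions or roles, in the submitters' processing notes, with the build mm10. Their annotation is not given in the sources. Per the file headers, the deposited tables, 1 for each of 3 times, give the log2 FPKM of each line as 1 group value, a log2 ratio and a q-value. A log2 value of -10 was read as listed at 0.

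FPKM was recovered by raising 2 to the deposited log2 value. Folds were computed from the authors' deposited ratio, so rounding to 2 decimals limits both. A gene was taken as called at the authors' deposited q-value of at most 0.05. A test over samples could not be made because the tables give 1 value per group. Changes with time used a pseudocount of 1, which understates changes of low genes. Alternatives were a q of 0.01, a minimum fold of 2, a minimum of 5 FPKM, a pseudocount of 0.1 and other centring. The minimum fold for the lists was chosen after seeing the data. Shared stretches of 75 bases and transcript lengths came from GENCODE transcripts. Start-site windows came from RefSeq, and in 8 of 10 genes the lower coordinate of the span equalled that of RefSeq, which is the 3′ end of genes on the minus strand.

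The 10 genes and all lists were chosen with earlier results of these data known. The text names all 10 genes, and from each list some of the up to 4 called genes with the largest ratio at each time and at least 1 FPKM in the higher line. For likeness it names the 3 nearest genes of each of 3 enzymes. Genes near the loci, marker genes, Eif2s1, Nfe2l2, Keap1 and Akr7a5 stand outside that rule. The counting steps were tested on simulated data. Python 3.11.15, pandas 2.3.3, numpy 2.4.6 and matplotlib 3.10.9 were used.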

Additional observations from a re-analysis of the deposited data

Results flagged for a closer look

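2 genes of the related lists were called in opposite directions at different times. Maff, a small Maf protein, had a log2 ratio of S51A over WT of -1.57 at 0 min and -1.39 at 15 min, and of 0.94 at 120 min, in the authors' deposited table. Akr7a5, an aldo-keto reductase, had a log2 ratio of -0.34 at 0 min and 0.57 at 120 min in the authors' deposited table. The difference between the times was not tested for either gene, because the tables give 1 value per group.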

How the results depend on the processing

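No paired analysis was possible because the tables give 1 value per group, and leaving out each replicate in turn was not run for the same reason. The sign of each enzyme's ratio was unchanged in all 58 recomputed values. Those with a pseudocount of 1 keep the sign by construction, so they are no check of it. The others were taken relative to the median ratio of genes listed in all 3 tables (-0.29, -0.295 and 0.38 at 0, 15 and 120 min). Relative to that median the move from 0 to 120 min turned for Gsto1, Akr1b8, Gstt1 and Cbr3, as given above. Relative to the median shift of single genes of all lengths, -0.05, no move turned. Relative to the median shift of 1.10 among genes under 1500 nt, the 6 upward moves, all of genes under that length, turned down. The part of transcript length in these moves was not tested. The counts of enzymes called moved by over 1.5 times in 1 case: with a minimum fold of 2, 1 was lower at 120 min. Of 108 alternatives for the change from 0 min, 88 moved by under 0.1, 15 moved further and 5 changed sign. All 5 were changes from 0 to 120 min in S51A: -0.049 for Gstm1, -0.15 for Gstm2 and -0.029 for Ephx1 without centring, -0.084 for Gstm2 centred on genes of at least 5 FPKM, and 0.024 for Gstt1 with a pseudocount of 0.1. These 4 genes therefore have no stated direction in S51A.

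With a minimum fold of 2, the genes higher and lower in S51A at 0, 15 and 120 min were 4 and 0, 4 and 0, and 5 and 0 for other glutathione transferases. They were 4 and 2, 5 and 2, and 4 and 2 for other carbonyl, quinone and enone reductases, and 1 and 0 each time for other epoxide hydrolases. They were 3 and 1, 4 and 2, and 2 and 1 for conjugate export and mercapturate formation, and 3 and 1, 3 and 1, and 2 and 2 for aldehyde dehydrogenases. They were 3 and 1, 3 and 1, and 4 and 1 for other conjugating enzymes, 2 and 3, 1 and 2, and 1 and 1 for NRF2 and its regulators, and 6 and 0, 5 and 0, and 2 and 0 for phase I oxidation. Over all listed genes, the shares higher and lower by at least 2-fold were 22.1% and 15% at 0 min. They were 20.2% and 12.3% at 15 min, and 26.5% and 20.9% at 120 min. Depth is unknown, so values under 1 FPKM, such as Cbr3 in WT, have unknown precision.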
